A study of Mus musculus with 18 samples.

Results

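The BCL2 family and survival genes were followed in bone marrow-derived macrophages (BMDMs): Mcl1, Bcl2l1, Bcl2, Bcl2a1a, Bcl2a1b, Bcl2a1d, Bcl2l11, Bbc3, Pmaip1 and Birc3. They are the 10 of 20615 genes in the deposited table that carry those names, picked by name and not by a threshold on any value. The names were chosen with earlier results of these data known, so counts of members beside all genes are descriptions only. BMDMs are macrophages grown from bone marrow, here of female mice of 7 to 12 weeks kept for 7 days in medium with M-CSF from L929 cells. The RNA of 18 samples was sequenced, 3 in each of 6 groups: untreated (Con), given apoptotic cells (AC) or given CpG, each for C57BL/6 (B6) and for C57BL/6.NOD-Aec1Aec2 (SjSS) mice. SjSS mice are a model of Sjögren's syndrome in which the Aec1 and Aec2 intervals derive from NOD mice and the rest of the genome from B6, so the strains differ by whole intervals and not by a single allele.

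The ACs were thymocytes killed with dexamethasone, given at 5 per BMDM for 2 h and then washed off, with 3 h of further culture by the labels and somewhat longer by the study's methods. CpG, an oligonucleotide that stimulates Toll-like receptors, was given at 1 µM for 6 h, so the time of exposure differs between the treatments. The study's figure legend does not limit the wash and the 3 h of further culture to ACs. Whether CpG treated samples had them too is therefore unclear. Each strain was represented by 3 mice. It is not stated which strain the thymocytes of a sample came from, or whether 1 mouse gave all samples that carry its number, and p values measure the spread between these samples.

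Proteins of the BCL2 family decide whether the outer membrane of mitochondria stays intact. The anti-apoptotic members MCL1, BCL-XL (Bcl2l1), BCL2 and A1 (the Bcl2a1 genes) hold the pore formers BAX and BAK in check, and the BH3-only members BIM (Bcl2l11), PUMA (Bbc3) and NOXA (Pmaip1) bind the anti-apoptotic ones and free the pore formers. Birc3 encodes cIAP2, a ubiquitin ligase of tumour necrosis factor receptor signalling that favours NF-kB activation and cell survival. A1 and Birc3 are well-known NF-kB target genes in myeloid cells, and the BIM gene is a known target of FOXO3.

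The mouse A1 genes are near copies of one another on chromosome 9. In the deposited table Bcl2a1a lies at chr9:88956900-88962419 on the plus strand, Bcl2a1b at chr9:89199209-89207827 on the plus strand and Bcl2a1d at chr9:88723285-88731914 on the minus strand (mm10). Birc3 is on the same chromosome at chr9:7848699-7873186, minus strand. Mcl1 lies at chr3:95658788-95663176 (plus), Bcl2 at chr1:106538178-106714274 (minus), Bcl2l1 at chr2:152780668-152831728 (minus), Bcl2l11 at chr2:128126038-128162547 (plus) and Bbc3 at chr7:16308393-16318205 (plus). The coding sequences of the A1 genes in GENCODE M21 have 516 bases each and were identical at 97.9% (Bcl2a1a and Bcl2a1b), 98.6% (Bcl2a1a and Bcl2a1d) and 98.8% (Bcl2a1b and Bcl2a1d) of them. Of the 12 positions that vary, 7 are in the first 150 coding bases, which are shown because the split of reads between these genes rests on such positions. They are given 5′ to 3′ on the coding strand, with the positions that vary in capitals, at chr9:88957051-88957200 (Bcl2a1a), chr9:89199360-89199509 (Bcl2a1b) and chr9:88731570-88731719 (Bcl2a1d, minus strand).
Bcl2a1a: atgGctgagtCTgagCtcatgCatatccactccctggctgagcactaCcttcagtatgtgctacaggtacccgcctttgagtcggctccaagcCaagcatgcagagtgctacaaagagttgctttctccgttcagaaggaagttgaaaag
Bcl2a1b: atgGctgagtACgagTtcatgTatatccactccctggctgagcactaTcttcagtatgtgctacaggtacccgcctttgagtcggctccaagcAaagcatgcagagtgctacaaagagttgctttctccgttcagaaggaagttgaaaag
Bcl2a1d: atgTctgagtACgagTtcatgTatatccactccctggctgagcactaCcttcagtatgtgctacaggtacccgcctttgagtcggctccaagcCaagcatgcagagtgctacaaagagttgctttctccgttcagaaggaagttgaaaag

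Of all windows of 1 read length in Bcl2a1a transcripts only 56.9% occurred in no other annotated gene, and in Bcl2a1b and Bcl2a1d 43.7% and 46.0%, against 98.3% for Birc3 and 100% for each of the other 6. Reads were assigned to genes by an expectation-maximization step, which shares reads that match several genes by estimate. Each value for a single A1 gene is therefore uncertain, and the sum of the A1 genes is given beside them below.

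The promoter windows of the A1 genes, from 250 bases before to 50 after the annotated start (RefSeq, GRCm38.p6), are shown because these genes moved together, and that of Mcl1 because it holds an NF-kB pattern. Motifs were searched on both strands: NF-kB as GGG and TTCC with 3 free bases between, found in 5.56% of all 32851 promoter windows of the same length, ISRE as GAAA and GAAA with 2 free bases between (3.44%), GAS as TTCNNNGAA (8.3%) and AP-1 as TGANTCA (7.81%). The capitals mark AP-1 in the A1 windows and NF-kB, read from the other strand, in the Mcl1 window. The windows are chr9:88956670-88956969 (Bcl2a1a), chr9:89199023-89199322 (Bcl2a1b), chr9:88731801-88732100 (Bcl2a1d, minus strand) and chr3:95658471-95658770 (Mcl1).
Bcl2a1a: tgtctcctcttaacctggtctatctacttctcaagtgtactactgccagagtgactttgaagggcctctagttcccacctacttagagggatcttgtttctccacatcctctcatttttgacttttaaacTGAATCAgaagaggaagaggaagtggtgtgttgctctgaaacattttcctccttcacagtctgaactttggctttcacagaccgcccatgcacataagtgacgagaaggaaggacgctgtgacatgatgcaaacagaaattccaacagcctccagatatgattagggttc
Bcl2a1b: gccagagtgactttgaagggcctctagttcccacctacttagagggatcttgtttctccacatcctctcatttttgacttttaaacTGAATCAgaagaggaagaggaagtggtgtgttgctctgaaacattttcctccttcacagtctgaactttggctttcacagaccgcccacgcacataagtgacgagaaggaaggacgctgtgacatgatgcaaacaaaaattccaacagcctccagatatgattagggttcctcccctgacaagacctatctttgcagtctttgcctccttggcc
Bcl2a1d: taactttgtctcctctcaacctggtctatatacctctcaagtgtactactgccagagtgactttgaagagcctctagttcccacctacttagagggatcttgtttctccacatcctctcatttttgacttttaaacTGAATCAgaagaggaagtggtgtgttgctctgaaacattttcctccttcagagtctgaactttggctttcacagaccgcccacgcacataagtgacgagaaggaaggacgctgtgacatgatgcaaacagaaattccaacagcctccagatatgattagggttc
Mcl1: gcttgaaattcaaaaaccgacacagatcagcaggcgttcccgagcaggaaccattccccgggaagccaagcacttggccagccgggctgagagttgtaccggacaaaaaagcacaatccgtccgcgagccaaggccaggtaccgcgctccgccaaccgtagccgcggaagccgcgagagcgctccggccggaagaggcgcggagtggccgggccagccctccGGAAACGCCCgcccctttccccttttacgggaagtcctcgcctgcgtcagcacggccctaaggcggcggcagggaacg

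The AP-1 match was the same in all A1 windows, 120 bases before the start in Bcl2a1a, 164 in Bcl2a1b and 114 in Bcl2a1d, and since the windows are near copies of one sequence it counts once. The NF-kB pattern began 28 bases before the start of Mcl1, 218 before one of the 3 annotated starts of Bcl2l1 and 136 before one of the 3 of Bbc3. The windows of Birc3, Bcl2 and Bcl2l11 held none of the 4 patterns, which says only that these letters are not in these windows.

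The libraries held 30688336 to 57139662 estimated counts, and 15789 genes, all 10 members among them, passed a filter on low counts. Levels are given as CPM, the usual scaling of counts to a common library total, with totals multiplied by TMM factors. A gene is said to rise or fall, or to be higher or lower, where edgeR's Benjamini-Hochberg adjusted p was under 0.05, and to be called where the change was also over 1.3 on the log2 scale (2.46-fold), the study's threshold. SjSS control replicate 3 stood apart from the other SjSS controls for several members, and results that rest on it are given without it. All 9 macrophage markers were detected in all groups, with a summed level of 15600 to 23900 CPM. The summed level of 5 fibroblast and stroma markers was 148 to 232 CPM in SjSS and 38.6 to 133 CPM in B6 samples, and its part in the strain differences below was not tested. Neutrophil and precursor markers summed to 35.3 to 48.7 CPM in AC treated B6 and 70.5 to 73.4 CPM in AC treated SjSS samples. Their controls were at 76.5 to 91.6 and 82.8 to 87.3 CPM. Of 4 tested, S100a9 and Camp were called for the difference between the AC responses, higher in SjSS (log2 6.42 ± 2.02 and 5.79 ± 1.57). There 7.53% of all genes were called. B lineage markers summed to 12 to 12.6 and 13 to 13.5 CPM with ACs. The part of these lists was not tested either. The table held 23 of 25 T lineage markers, of which 9 passed the filter. All 23 together summed to 28 to 35.3 CPM in AC treated B6 and 45.3 to 49.8 CPM in AC treated SjSS BMDMs, below both control groups (67.6 to 89.3 CPM). That sum was mostly Cd28, at 70.1 ± 9.25 CPM in control and 23.8 ± 2.76 CPM in AC treated B6 and at 58.7 ± 9.44 and 29 ± 1.69 CPM in SjSS. Cd28 and Satb1 were called lower with ACs in B6 (log2 -1.56 ± 0.15 and -1.47 ± 0.28). Of markers that went the other way, Tcf7 was called in B6 (log2 1.35 ± 0.5, 0.176 to 0.46 CPM) and Lck in SjSS (2.11 ± 0.47, 0.155 to 0.651 CPM). Of the 9, 1 was called higher and 2 lower in B6, where 4.47% of all genes were called. In SjSS 1 was called higher and 0 lower, where 12.9% were. Between the strains with ACs, where 8.93% of all genes were called, Cd4 alone of the 9 was called, higher in SjSS (log2 1.97 ± 0.14, adjusted p = 8.47e-10). Cd4 alone was also called for the difference between the AC responses of the strains (1.71 ± 0.19, adjusted p = 8.88e-07). The 14 in the table that did not pass summed to 0.973 to 1.72 CPM in AC treated B6, 0.673 to 0.93 CPM in AC treated SjSS and 0.148 to 0.682 CPM in control samples. Their part in the AC responses below was not tested.

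Bcl2a1a and Bcl2a1d had the largest changes of the 10 in all 4 responses. Bcl2a1a was measured at 3.6, 3.82 and 4.81 CPM in control B6, 20.4, 24.4 and 24.1 CPM in AC treated B6 and 106, 94.6 and 94.4 CPM in CpG treated B6 BMDMs. In SjSS BMDMs it was at 2.71, 3.02 and 2.30 CPM without treatment, 62.3, 65.6 and 71.3 CPM with ACs and 70.2, 63.1 and 80.2 CPM with CpG. The control samples of both strains were thus the lowest, AC treated B6 samples stood between, and the AC and CpG treated SjSS samples overlapped, with CpG treated B6 above them. Bcl2a1a rose 5.63-fold with ACs in B6 (log2 2.49 ± 0.12 SE, adjusted p = 1.72e-11) and 25.1-fold in SjSS BMDMs (log2 4.65 ± 0.13, adjusted p = 7.86e-16). With CpG it rose 24.1-fold in B6 and 26.9-fold in SjSS BMDMs. In bulk RNA a change in the number of cells of a type and a change in the RNA per cell cannot be told apart.

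Bcl2a1d was likewise lowest in the control samples. Its levels were 7.65, 9.70 and 11.1 CPM in control and 25.6, 30.4 and 31.2 CPM in AC treated B6, and 8.47, 9.17 and 6.45 CPM in control and 133, 137 and 143 CPM in AC treated SjSS BMDMs. With CpG it was at 137, 120 and 123 CPM in B6 and 103, 87.4 and 103 CPM in SjSS BMDMs. No treated sample overlapped the controls of its strain. The rise with ACs was 3.06-fold in B6 (log2 1.62 ± 0.13, adjusted p = 9.01e-09) and 17.3-fold in SjSS (log2 4.11 ± 0.13, adjusted p = 5.73e-15), and that with CpG was 13.4-fold and 12.3-fold.

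Bcl2a1b had the smallest folds of the A1 genes. It was measured at 165, 180 and 169 CPM in control B6 and 187, 205 and 202 CPM in AC treated B6, against 156, 158 and 132 CPM in control SjSS and 377, 399 and 391 CPM in AC treated SjSS BMDMs. With CpG it was at 403, 329 and 345 CPM in B6 and 291, 266 and 293 CPM in SjSS BMDMs. It rose 2.61-fold with ACs in SjSS (log2 1.39 ± 0.08, adjusted p = 1.25e-11, but 0.97 and not called with library totals alone) and 2.1-fold and 1.9-fold with CpG in B6 and SjSS. In B6 the rise with ACs was 1.16-fold (adjusted p = 0.0363), which did not pass with library totals alone (adjusted p = 0.126), with no filter (adjusted p = 0.0572) or without B6 control replicate 1 or 3 or AC treated B6 replicate 2 or 3 (adjusted p of up to 0.119).

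The split of A1 counts between the genes changed with treatment. Bcl2a1b held 92.7% ± 1.16 (SD, n = 3) of A1 counts in control B6 and 93.3% ± 0.482 in control SjSS BMDMs. With ACs its share was 79.2% ± 0.938 in B6 and 65.6% ± 0.881 in SjSS, and with CpG 61.4% ± 0.905 in B6 and 62.7% ± 1.14 in SjSS BMDMs. The share of Bcl2a1a went from 2.21% ± 0.345 in control B6 to 9.19% ± 0.368 with ACs and 16.9% ± 0.493 with CpG, and in SjSS from 1.67% ± 0.0879 to 11.2% ± 0.514 and 15.7% ± 0.982. That of Bcl2a1d was 5.13% ± 0.845 and 5.01% ± 0.412 in the controls and 23.2% ± 0.409 in AC treated SjSS BMDMs. These shares are estimates, for the reason given above.

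**Figure D1:**
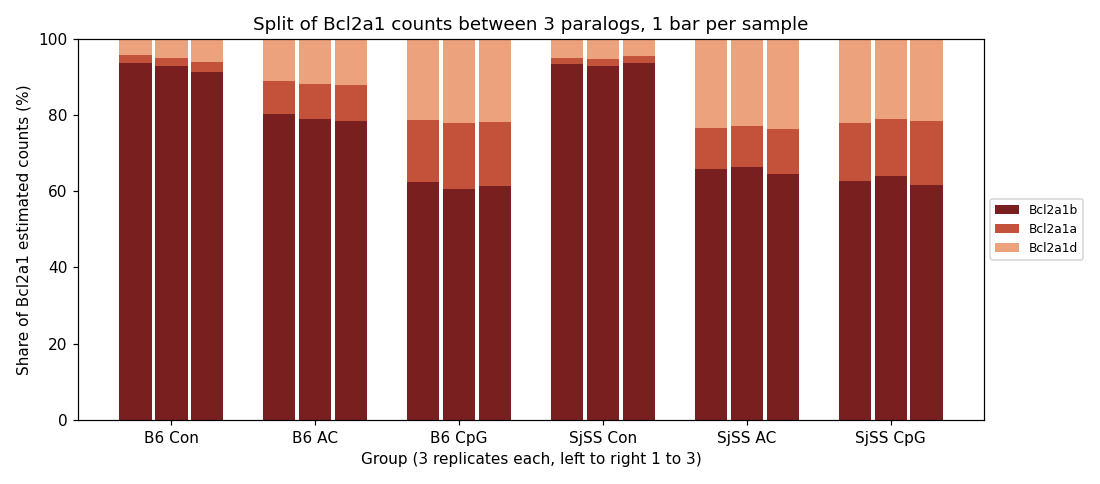
Share of the estimated counts of Bcl2a1a, Bcl2a1b and Bcl2a1d (vertical axis, percent) in each of the 18 samples, 1 bar per sample, with 3 bars per group. Bcl2a1b takes over 90% of each control bar and 61.4% of the CpG treated B6 bars on average, and bars of the same group are alike.

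The sum of the A1 genes does not depend on how reads were split between them, other than those shared with genes outside the sum. It was 185 ± 8.61 CPM in control B6, 250 ± 14.6 with ACs and 584 ± 54.8 with CpG, and 160 ± 16.1, 593 ± 18 and 452 ± 31.4 CPM in SjSS BMDMs. Fitted as 1 gene it rose 1.35-fold with ACs in B6 (log2 0.44 ± 0.08, adjusted p = 1.96e-04) and 3.72-fold in SjSS (log2 1.89 ± 0.08, adjusted p = 2.20e-13). With CpG it rose 3.17-fold in B6 and 2.83-fold in SjSS. The AC response of the sum was thus called in SjSS and under the fold threshold in B6, where Bcl2a1a and Bcl2a1d alone were called. A further copy, Bcl2a1c, held 3, 13 and 35 counts in all over the control, AC and CpG treated B6 groups and 0, 21 and 31 over those of SjSS.

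Mcl1, whose protein is short-lived, rose with both treatments in both strains but was called in no comparison. Its levels were 542, 573 and 541 CPM in control and 717, 699 and 739 CPM in AC treated B6, and 479, 471 and 406 CPM in control and 857, 863 and 892 CPM in AC treated SjSS BMDMs. With CpG they were 625, 694 and 688 CPM in B6 and 671, 609 and 630 CPM in SjSS. On this scale the AC treated SjSS samples were the highest and the control SjSS samples the lowest, with no overlap with any other group. The rise with ACs was 1.3-fold in B6 (log2 0.38 ± 0.06, adjusted p = 9.16e-05) and 1.92-fold in SjSS (log2 0.94 ± 0.06, adjusted p = 2.06e-10), and that with CpG 1.21-fold and 1.41-fold. The rise with CpG in B6 did not pass with library totals alone (log2 0.1, adjusted p = 0.156).

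Bcl2l1 fell in both treated groups of B6 BMDMs. It was at 141, 140 and 144 CPM in control B6, 93.0, 88.3 and 89.7 CPM with ACs and 87.8, 91.6 and 84.3 CPM with CpG, so that every treated sample lay below every control. The falls were 1.57-fold with ACs (log2 -0.65 ± 0.12, adjusted p = 3.45e-04) and 1.61-fold with CpG (log2 -0.69 ± 0.12, adjusted p = 8.86e-05). In SjSS controls it was at 113 and 116 CPM in replicates 1 and 2 and at 68.4 CPM in replicate 3, and the treated SjSS samples lay between 73.2 and 84.4 CPM. The log2 changes in SjSS were -0.33 with ACs (adjusted p = 0.0286) and -0.29 with CpG (adjusted p = 0.0576), and without control replicate 3 they were -0.54 (adjusted p = 2.48e-07) and -0.5 (adjusted p = 8.83e-07). The change with ACs did not pass without SjSS control replicate 1 (adjusted p = 0.166) or 2 (adjusted p = 0.189) or without AC treated SjSS replicate 1 (adjusted p = 0.106).

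Bcl2 was at 14.6, 15 and 16.8 CPM in control and 8.58, 8.82 and 8.89 CPM in AC treated B6 BMDMs, a fall of 1.77-fold (log2 -0.82 ± 0.12, adjusted p = 2.73e-05). In SjSS it was at 22.7, 23.5 and 15.5 CPM in controls and 14.5, 14.3 and 14.8 CPM with ACs, a fall of 1.41-fold (adjusted p = 0.00138). With CpG the levels were 15, 13.5 and 16.4 CPM in B6 and 18.6, 19.0 and 16.3 CPM in SjSS, overlapping the controls, with adjusted p = 0.764 and 0.178. Without SjSS control replicate 3 the fall with CpG in SjSS passed (log2 -0.37, adjusted p = 0.00205).

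The BH3-only genes did not move as a group. Bcl2l11 fell in all 4 responses. It was at 124, 134 and 119 CPM in control B6, 88.8, 86.7 and 93.0 CPM with ACs and 48.0, 48.6 and 44.7 CPM with CpG. In SjSS it was at 145, 141 and 147 CPM without treatment, 63.3, 63.9 and 66.6 CPM with ACs and 62.3, 65.8 and 48.6 CPM with CpG. The groups of a strain did not overlap in B6, while the AC and CpG treated SjSS samples did. The falls were 1.4-fold with ACs in B6 (log2 -0.49 ± 0.08, adjusted p = 7.01e-05), 2.23-fold with ACs in SjSS (log2 -1.16 ± 0.08, adjusted p = 3.13e-10), 2.67-fold with CpG in B6 (adjusted p = 2.28e-11) and 2.45-fold with CpG in SjSS (adjusted p = 1.07e-10). Only the third passed the fold threshold. The second passed it with library totals alone (log2 -1.57), and the log2 value of the fourth, -1.29, passed it with no filter (-1.3) or without any 1 of 3 libraries (SjSS control replicate 2, CpG treated SjSS replicate 1 or 2).

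Bbc3 was at 10.9, 10 and 11.3 CPM in control B6, 8.6, 10 and 10.2 CPM with ACs and 6.27, 6.71 and 8.32 CPM with CpG. In SjSS it was at 15.6, 15.7 and 24.3 CPM without treatment, 19.7, 22.8 and 22.3 CPM with ACs and 6.16, 7.78 and 7.58 CPM with CpG. CpG treated samples were the lowest of each strain. Bbc3 fell 1.51-fold with CpG in B6 (adjusted p = 0.0027) and 2.59-fold in SjSS (log2 -1.37 ± 0.15, adjusted p = 3.40e-07). The latter was called, but its log2 value was -1.12 without SjSS control replicate 3 and -1.27 without CpG treated SjSS replicate 1, both under the fold threshold. With ACs the log2 values were -0.16 in B6 (adjusted p = 0.445) and 0.22 in SjSS (adjusted p = 0.21), and the latter was 0.47 without SjSS control replicate 3 (adjusted p = 0.00306) and -0.2 with library totals alone (adjusted p = 0.253).

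Pmaip1, on chromosome 18, was at 12.0, 13.5 and 11.2 CPM in control B6, 10.3, 11.7 and 15 CPM with ACs and 4.96, 5.30 and 7.41 CPM with CpG. In SjSS it was at 16.9, 14.4 and 11.1 CPM, 21.6, 18.8 and 20.3 CPM and 13.2, 10.4 and 9.64 CPM. Only the AC treated SjSS and the CpG treated B6 samples lay apart from the controls of their strain. It fell 2.07-fold with CpG in B6 (log2 -1.05 ± 0.18, adjusted p = 4.15e-05). The log2 value of 0.52 with ACs in SjSS (adjusted p = 0.011) was 0.11 with library totals alone (adjusted p = 0.56) and 0.37 without SjSS control replicate 3 (adjusted p = 0.0756). The value of -0.35 with CpG in SjSS (adjusted p = 0.0921) was -0.5 without that library (adjusted p = 0.0202).

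Birc3 rose in all 4 responses. It was at 52.3, 59.2 and 50.9 CPM in control B6, 109, 138 and 137 CPM with ACs and 267, 264 and 254 CPM with CpG. In SjSS it was at 40.5, 49.1 and 42.9 CPM without treatment, 188, 194 and 188 CPM with ACs and 216, 204 and 224 CPM with CpG. No 2 groups overlapped, and the control SjSS samples were the lowest and the CpG treated B6 samples the highest. The rise with ACs was 2.37-fold in B6 (log2 1.24 ± 0.08, adjusted p = 1.34e-09), just under the fold threshold, and 4.31-fold in SjSS (log2 2.11 ± 0.09, adjusted p = 1.34e-13). With CpG it was 4.83-fold in B6 and 4.86-fold in SjSS. Without B6 control replicate 2 or AC treated B6 replicate 1 the AC response in B6 passed the fold threshold (log2 1.31 and 1.34).

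**Figure D2:**
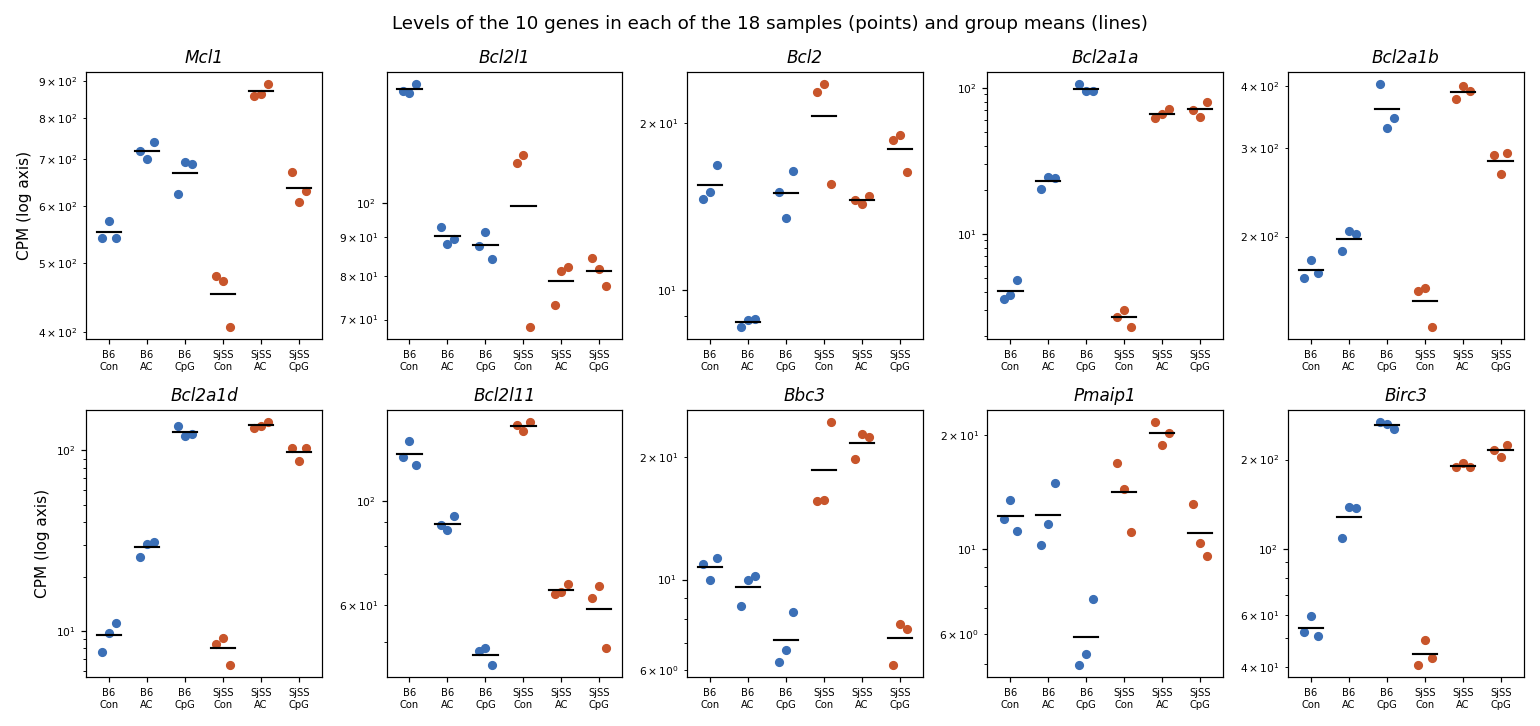
CPM of each of the 10 genes (vertical axes, logarithmic, a range of its own in each panel) in the 6 groups, with a point per sample, a line at the group mean, B6 in blue and SjSS in orange. Bcl2a1a spans from 2.30 CPM in a control SjSS sample to 106 CPM in a CpG treated B6 sample, and SjSS control replicate 3 lies away from its group for Bcl2l1, Bcl2 and Bbc3.

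Counted together, 2 of 10 members were called with ACs in B6 (Bcl2a1a and Bcl2a1d), where 4.47% of all tested genes were called, and 4 of 10 with ACs in SjSS (these, Bcl2a1b and Birc3), where 12.9% were. With library totals alone the 4 called with ACs in SjSS held Bcl2l11 in place of Bcl2a1b. With CpG 4 of 10 were called in B6 (Bcl2a1a, Bcl2a1d and Birc3 higher, Bcl2l11 lower) against 12.7% of all genes, and 4 of 10 in SjSS (the same rises, with Bbc3 lower) against 9.26%. With the adjusted p alone, 5 members rose and 3 fell with ACs in B6 (38.3% of all genes passed either way), 6 rose and 3 fell with ACs in SjSS (58%), 5 rose and 4 fell with CpG in B6 (57.9%) and 5 rose and 2 fell with CpG in SjSS (54.2%). The median log2 change of the 10 was 0.11, 0.73, 0.12 and 0.15 in that order, and that of all tested genes 0, -0.02, -0.04 and -0.01. With the A1 genes summed to 1, the calls were 0 of 8 with ACs in B6, 2 of 8 with ACs in SjSS and 3 of 8 and 3 of 8 with CpG, so the counts of 10 weigh A1 more than once. Comparisons within a strain share its control samples.

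**Figure D3:**
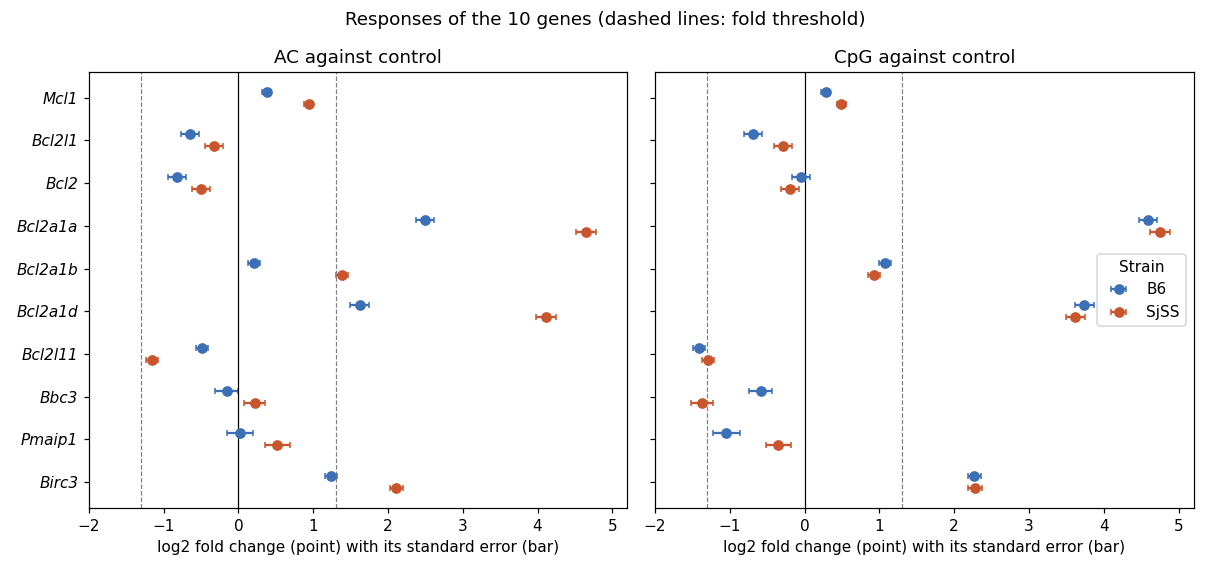
Log2 fold change against the control of the same strain (horizontal axis, points, with the standard error as bars) of the 10 genes for AC (left) and CpG (right), B6 in blue and SjSS in orange, with dashed lines at the fold threshold. For AC the strains lie apart at Bcl2a1a (2.49 and 4.65) and Bcl2a1d (1.62 and 4.11), and for CpG they lie close together at both genes.

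The difference between the AC responses of the strains was tested as an interaction. It was called for Bcl2a1d, whose AC response was 5.65-fold larger in SjSS (log2 2.5 ± 0.18, adjusted p = 2.87e-09), and for Bcl2a1a, 4.46-fold larger (log2 2.16 ± 0.17, adjusted p = 1.41e-08), while 7.53% of all tested genes were called. It passed without reaching the fold threshold for Bcl2a1b (log2 1.18 ± 0.11, adjusted p = 7.33e-08), Birc3 (0.86 ± 0.12, adjusted p = 1.09e-05) and Mcl1 (0.56 ± 0.09, adjusted p = 5.84e-05), all with the larger rise in SjSS, and for Bcl2l11 (-0.67 ± 0.11, adjusted p = 1.05e-04), with the larger fall in SjSS. These are 6 of 10 members, against 37.9% of all genes. The sum of the A1 genes gave a log2 difference of 1.46 ± 0.11 (adjusted p = 6.73e-09). For Bcl2, Bcl2l1, Bbc3 and Pmaip1 the log2 differences were 0.32, 0.32, 0.38 and 0.51 (adjusted p = 0.152, 0.169, 0.171 and 0.0999), and that of Bbc3 was 0.63 without SjSS control replicate 3 (adjusted p = 0.00579). That of Pmaip1 passed without SjSS control replicate 1 (adjusted p = 0.0372) or AC treated B6 replicate 3 (adjusted p = 0.0356). With library totals alone the log2 differences of Bcl2 and Bcl2l1 were each -0.02.

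For CpG the difference between the strains was called for 0 of 10 members by edgeR, and 0.614% of all tested genes were called. Bbc3 alone passed the adjusted p (log2 -0.78 ± 0.22, adjusted p = 0.04), with the larger fall in SjSS, where 5.85% of all genes passed, and it did not pass without SjSS control replicate 3 (log2 -0.53, adjusted p = 0.0865) or without any 1 of 6 other libraries (B6 control replicate 1 or 2, CpG treated B6 replicate 2 or 3, CpG treated SjSS replicate 1 or 2), with adjusted p of up to 0.117. DESeq2 gave adjusted p = 0.00565 for it. Pmaip1 (log2 0.7 ± 0.24, adjusted p = 0.1) passed without SjSS control replicate 1 (0.86, adjusted p = 0.0465) or CpG treated B6 replicate 3 (0.88, adjusted p = 0.0394). Bcl2a1a (log2 0.16 ± 0.17, adjusted p = 0.671), Bcl2a1d (-0.12 ± 0.18, adjusted p = 0.755) and Birc3 (0.01 ± 0.12, adjusted p = 0.979), the genes with the largest CpG responses in both strains, did not pass. At an unadjusted p under 0.05 the differences of Bcl2l1 (0.0341), Mcl1 (0.0268), Pmaip1 (0.00976) and Bbc3 (0.00202) passed. Bcl2l1 had rank 2693 by p among the 15789 tested genes, so at least 2693 genes passed at that level.

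The strains were also compared directly. Among control samples 0 of 10 members were called, by edgeR, with 2.01% of all genes called, and 6 passed the adjusted p, with 19.6% of all genes passing. Bcl2 (log2 0.41) and Bbc3 (0.79 ± 0.15, adjusted p = 9.24e-04) were higher in SjSS, and Bcl2l1 (-0.52), Mcl1 (-0.29), Bcl2a1a (-0.63) and Birc3 (-0.3) were lower. Without SjSS control replicate 3 the value of Bbc3 was 0.54 (adjusted p = 0.00545), that of Bcl2l1 -0.3 (adjusted p = 0.00185) and that of Birc3 -0.27 (adjusted p = 0.0719). That of Birc3 also did not pass without B6 control replicate 2 or SjSS control replicate 1, nor that of Bcl2 without any 1 of 4 control libraries (replicate 1 or 2 of either strain, adjusted p of up to 0.107). At an unadjusted p under 0.05, 8 members passed. The last of them, Bcl2l11 (0.0196 by edgeR), had rank 3819 by p among the 15789 tested genes. At least 3819 genes thus passed at that level. With ACs 2 of 10 were called, Bcl2a1d (4.75-fold higher in SjSS, log2 2.25 ± 0.12, adjusted p = 1.42e-11) and Bcl2a1a (2.89-fold, log2 1.53 ± 0.1, adjusted p = 3.98e-10), against 8.93% of all genes. In all 8 were higher in SjSS with ACs by the adjusted p and Bcl2l11 was lower (log2 -0.47), against 49.4% of all genes passing, and with library totals alone the 0.28 of Mcl1 was -0.02 (adjusted p = 0.745) and the -0.2 of Bcl2l1 was -0.5 (adjusted p = 0.00126). The sum of the A1 genes was 2.38-fold higher in AC treated SjSS (log2 1.25 ± 0.08, adjusted p = 1.78e-10), just under the fold threshold.

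With CpG 0 of 10 members were called between the strains by edgeR, with 2.61% of all genes called, and 6 passed the adjusted p, with 19.7% of all genes passing. Pmaip1 (log2 0.91 ± 0.18, adjusted p = 0.0012) and Bcl2l11 (0.32 ± 0.08, adjusted p = 0.0085) were higher in SjSS, and Bcl2a1a (-0.47), Bcl2a1b (-0.34), Bcl2a1d (-0.37) and Birc3 (-0.29) were lower. At an unadjusted p under 0.05, 7 members passed. The last of them, Bcl2 (0.0416 by edgeR), had rank 4805 by p among the 15789 tested genes. At least 4805 genes thus passed at that level. Bcl2a1d did not pass without CpG treated B6 replicate 1 (adjusted p = 0.0988) or CpG treated SjSS replicate 2 (adjusted p = 0.119), Bcl2l11 without CpG treated B6 replicate 3 or CpG treated SjSS replicate 2 (adjusted p of up to 0.0646) and Birc3 without replicate 1 or 2 of either CpG treated group (adjusted p of up to 0.0822). The A1 genes were therefore higher in SjSS than in B6 BMDMs with ACs and lower with CpG. DESeq2 called 0 members between the strains in control or with CpG at the same thresholds.

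AC and CpG treated samples of a strain were set beside each other, with the different times in view. In B6 2 of 10 members were called, Bcl2a1a (4.28-fold lower with ACs, log2 -2.1 ± 0.1, adjusted p = 9.55e-12) and Bcl2a1d (4.36-fold lower, log2 -2.12 ± 0.12, adjusted p = 4.26e-11), where 7.11% of all genes were called and 46.1% passed the adjusted p. Birc3 (log2 -1.03), Bcl2a1b (-0.86) and Bcl2 (-0.77) were lower with ACs too, and Pmaip1 (1.06), Bcl2l11 (0.93) and Bbc3 (0.43) were higher, Bbc3 with an adjusted p of 0.0283 that was 0.0793 to 0.117 without 1 of 4 libraries (CpG treated B6 replicate 1 or 2, AC treated B6 replicate 2 or 3). In SjSS only Bbc3 was called, 3.01-fold higher with ACs (log2 1.59 ± 0.15, adjusted p = 5.65e-08), where 9.18% of all genes were called and 52.2% passed. There Pmaip1 (0.87), Bcl2a1d (0.5), Bcl2a1b (0.46) and Mcl1 (0.45) were higher with ACs and Bcl2 was lower (-0.3, adjusted p = 0.0397), which did not pass with DESeq2 (adjusted p = 0.0515) or without any 1 of 5 libraries (CpG treated replicate 1 or 2, any AC treated replicate, adjusted p of up to 0.123). Bcl2a1a (log2 -0.1, adjusted p = 0.418) and Birc3 (-0.17, adjusted p = 0.0831) did not pass, but with library totals alone they were lower with ACs (-0.38, adjusted p = 0.00165, and -0.46, adjusted p = 3.39e-05), while Bcl2a1d was at 0.21 (adjusted p = 0.0913).

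To compare levels between genes, CPM were divided by the length of the merged exons. On that scale the A1 genes and Mcl1 made up most transcripts of the anti-apoptotic members in every group. Of the sum of Mcl1, Bcl2l1, Bcl2 and the A1 genes, A1 made up 53.7% ± 0.662 in control B6, 56.8% ± 1.65 with ACs and 76.4% ± 2.55 with CpG, and 55.5% ± 0.491, 72.4% ± 0.372 and 72.6% ± 1.16 in SjSS BMDMs. Mcl1 made up 38.5% ± 0.556 in control B6 and 37.8% ± 0.843 in control SjSS, and 25.7% ± 0.415 in AC treated SjSS BMDMs. With TMM factors, though not without them, its own level was highest in that last group. Bcl2l1 went from 7.39% ± 0.322 in control B6 to 3.69% ± 0.22 with ACs and 2.08% ± 0.165 with CpG, and Bcl2 was under 1% in all groups. Bcl2l2, an anti-apoptotic gene that is not a member, is left out of the sum. Its group means, over 4.462 kb of merged exons, ran from 32.5 CPM in AC treated SjSS to 77.4 CPM in CpG treated B6 BMDMs.

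The anti-apoptotic sum was 419 ± 15.1 CPM per kb in control B6, 535 ± 18.1 with ACs and 923 ± 55.2 with CpG, and 351 ± 37.5, 990 ± 27.1 and 753 ± 43.9 CPM per kb in SjSS BMDMs. The sum of Bcl2l11, Bbc3 and Pmaip1 was 25.2 ± 1.05, 20.2 ± 1.52 and 11.4 ± 0.746 CPM per kb in B6 and 31.9 ± 1.85, 25.6 ± 0.59 and 14.8 ± 1.41 CPM per kb in SjSS. The ratio of the first sum to the second was 16.3 to 17.2 in control B6, 25.1 to 27.3 with ACs and 73.9 to 91.7 with CpG, and 9.1 to 12.4, 38.3 to 39 and 44.8 to 59.2 in SjSS samples. None of these ranges overlapped. Other BH3-only genes are left out of that sum, and with Bid, Bad, Bik and Bmf added, a choice made after seeing the data, the ratios were 8.03 to 8.66, 12.3 to 13.1 and 27.8 to 33.6 in B6 and 4.8 to 6.62, 18.4 to 18.9 and 19 to 22.7 in SjSS, again without overlap. The added genes held 46.6% to 63.4% of the larger sum. The rank of the strains changed between treatments, since SjSS was below B6 without treatment and with CpG and above it with ACs, by either sum. No test was made of the ratio, which concerns transcripts and not proteins. The make-up of the sum of the 3 BH3-only members differed too, with Bcl2l11 at 62.2% ± 1.05 in control B6 and 31.4% ± 0.256 in AC treated SjSS BMDMs, where Bbc3 made up 39.7% ± 2.5.

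**Figure D4:**
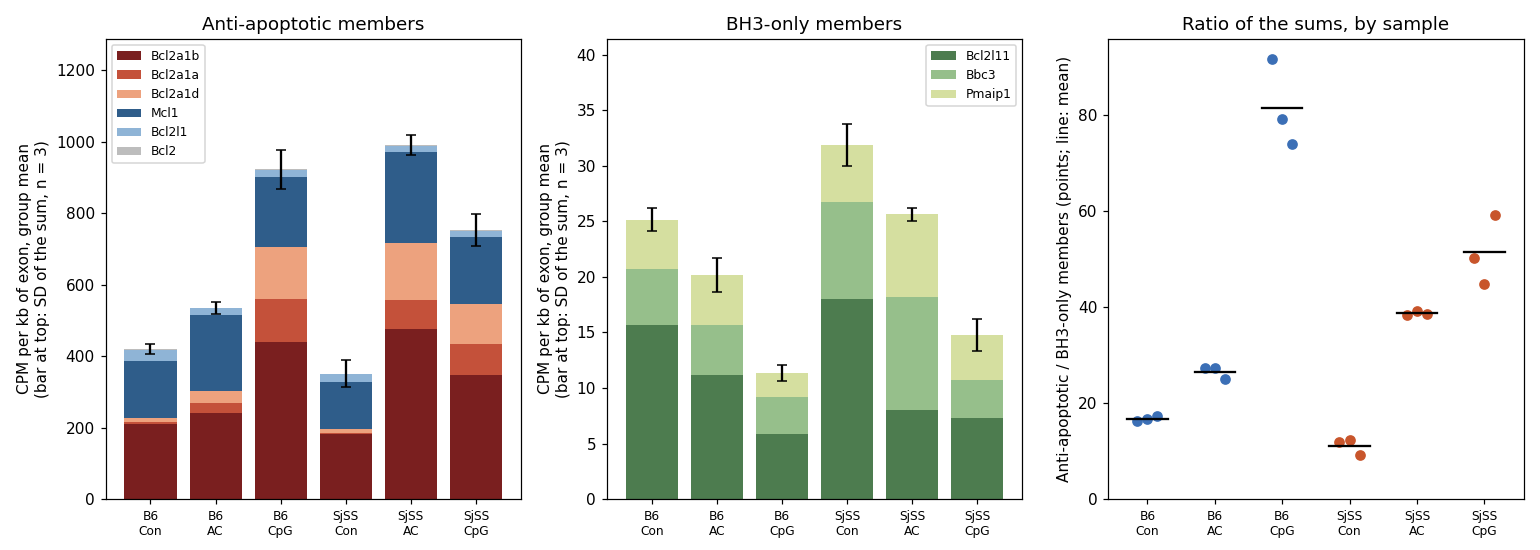
Left and middle, stacked group means of the 6 anti-apoptotic and the 3 BH3-only members (CPM per kb of merged exons, linear axes from 0, error bars the SD of the sum over 3 samples). Right, the ratio of these sums in each sample, without other BH3-only genes (points, B6 in blue and SjSS in orange, lines at the means), which runs from 9.1 in a control SjSS sample to 91.7 in a CpG treated B6 sample.

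The levels and fold changes above depend on the TMM factors, which ranged from 0.833 to 1.134, while shares and ratios taken within a sample do not. With library totals alone the median tested gene was at a log2 change of -0.43 for ACs in SjSS, -0.34 between the strains with ACs, -0.3 between AC and CpG treated SjSS, -0.22 for CpG in B6 and -0.14 for CpG in SjSS, so small changes of members are read against that shift. On that scale the rises of the A1 genes and Birc3 with ACs in SjSS were log2 4.24 (Bcl2a1a), 3.7 (Bcl2a1d), 0.97 (Bcl2a1b, no longer called) and 1.69 (Birc3), and the fall of Bcl2l11 was -1.57 (then called). On the CPM per kb scale 5 members had their highest group mean in AC treated SjSS BMDMs (Mcl1, Bcl2a1b, Bcl2a1d, Bbc3 and Pmaip1), and as TPM, which has no TMM factor, only 1 had.

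Other genes of the pathway were counted from lists of known members. Of 13 tested further BCL2 family genes, 1 rose and 1 fell past both thresholds with ACs in each strain (4.47% of all genes in B6 and 12.9% in SjSS), and the median log2 changes were 0.07 in B6 and 0.04 in SjSS. The fall was that of Bmf, a BH3-only gene, from 18.6 ± 1.51 to 7.45 ± 0.539 CPM in B6 (log2 -1.32 ± 0.14, adjusted p = 3.84e-07) and from 36.4 ± 4.94 to 1.62 ± 0.195 CPM in SjSS (log2 -4.49 ± 0.17, adjusted p = 3.21e-14). The difference between these falls was called (log2 -3.17 ± 0.21, adjusted p = 1.37e-09). The rise was that of Bcl2a1c, at the counts given above. With CpG 3 rose and 1 fell in B6, where 12.7% of all genes were called. In SjSS 1 rose and 1 fell, where 9.26% were. Bmf again fell in both (log2 -2.27 and -2.31). The rises were of Bcl2a1c in both strains and of Bnip3 and Bik in B6. Bik held only 10 counts in all over the control and 40 over the CpG treated B6 group.

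Of 10 tested inhibitors of apoptosis and their antagonists, 4 rose and 2 fell with ACs in B6 and 5 rose and 2 fell in SjSS by the adjusted p (38.3% and 58% of all genes), without reaching the fold threshold, and the median log2 changes were 0.04 and 0.03. Of 8 caspases and apoptosome genes, 6 fell and 1 rose with ACs in B6 by the adjusted p (median log2 -0.34, 38.3% of all genes passing), and 6 rose and 2 fell in SjSS (median 0.64, 58% passing). The difference between these responses passed for 7 of 8, higher in SjSS for 6 and lower for 1, where 37.9% of all genes passed.

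Of 9 genes of the death receptor pathway, 2 rose past both thresholds with ACs in B6 and 4 in SjSS, and 3 and 3 with CpG, where 4.47%, 12.9%, 12.7% and 9.26% of all genes were called. They included Fas, the death receptor itself (log2 1.78 ± 0.09 in B6 and 3.24 ± 0.09 in SjSS with ACs), Traf1 (3.36 ± 0.18 and 4.69 ± 0.18), an adaptor that binds cIAP2, and, in SjSS, Cflar (2.4 ± 0.1), which encodes the caspase-8 inhibitor c-FLIP. The difference between the AC responses was called for Cflar (1.57 ± 0.14, adjusted p = 4.05e-08), Fas (1.46 ± 0.12, adjusted p = 2.03e-08) and Traf1 (1.33 ± 0.26, adjusted p = 4.72e-04). For all 3 the larger rise was in SjSS, as for the A1 genes and Birc3, and 7.53% of all genes were called.

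Of 10 NF-kB feedback genes, which encode NF-kB subunits and inhibitors that NF-kB itself induces, 4 rose past both thresholds with ACs in B6 and 9 in SjSS, and 8 and 8 with CpG, against those same shares. Their median log2 changes were 1.23, 2.33, 1.62 and 1.9, beside -0.04 to 0 over all genes. Tnfaip3, which encodes the inhibitor A20, rose by log2 1.47 ± 0.1 with ACs in B6 and 3.31 ± 0.1 in SjSS, and by 2.68 ± 0.1 and 2.76 ± 0.1 with CpG. The difference between the AC responses was called for 5 of 10, where 7.53% of all genes were called. That between the CpG responses passed the adjusted p for 2 of 10, without reaching the fold threshold, where 5.85% of all genes passed.

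Of 10 tested p53 targets, 3 rose and 3 fell with ACs in B6 and 4 rose and 4 fell in SjSS by the adjusted p (38.3% and 58% of all genes). The median log2 changes were -0.08 and -0.23. In SjSS 1 of each passed the fold threshold too, where 12.9% of all genes were called. The rise was that of Cdkn1a, the cell cycle inhibitor p21 (log2 2.16 ± 0.12, adjusted p = 7.49e-12), and the fall that of Sesn2 (-1.65 ± 0.09, adjusted p = 6.66e-12). Of 8 regulators upstream of the BH3-only genes and A1, Foxo3 fell (log2 -2.14 ± 0.08, adjusted p = 1.90e-14) and Atf3 rose (1.39 ± 0.07, adjusted p = 1.15e-12) past both thresholds with ACs in SjSS. Foxo3 was at 155 ± 14.8 CPM in control and 35.2 ± 2.56 CPM in AC treated SjSS, and at 113 ± 0.848 and 65.6 ± 1.78 CPM in B6 BMDMs, and the difference between these falls was called (-1.36 ± 0.1, adjusted p = 7.18e-09). Tsc22d3, a glucocorticoid-induced gene, fell with CpG in both strains (log2 -2.62 ± 0.11 and -1.75 ± 0.11). It was not called with ACs in either strain. The difference between its AC responses was called, with SjSS lower (-1.51 ± 0.15, adjusted p = 1.38e-07). In B6 it was called higher with ACs than with CpG (2.88 ± 0.12, adjusted p = 6.86e-13).

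As a description of pattern, the genes most like each member over the 18 samples were sought by Pearson's r of log2 CPM. They were Psmd10, Gpd2 and M6pr for Bcl2a1a (r = 0.994 to 0.996), Klf6, Rel and Calcrl for Bcl2a1b (0.986 to 0.992) and Gm9845, Tnfaip3 and Acot9 for Bcl2a1d (0.993 to 0.995). For Birc3 they were St3gal1, Rab10 and Tma16 (0.994 to 0.995), for Bcl2l11 Arhgap19, Ip6k1 and Natd1 (0.986 to 0.989) and for Mcl1 Ralgds, Zhx2 and Dnaja1 (0.968 to 0.972). Bbc3 (Rnpepl1, Grn and Gm13456, 0.933 to 0.97), Pmaip1 (Osbpl8, Stx3 and Tspan13, 0.941 to 0.959), Bcl2l1 (Sh3pxd2b, Sipa1l2 and Ankrd11, 0.904 to 0.936) and Bcl2 (Slamf6 and Efr3b, 0.859 to 0.88) had less close matches. Among the members, Birc3 and Bcl2a1a had r = 0.99 and Bcl2l11 and Bcl2a1a r = -0.97. The points share libraries and fall into 6 groups, so these values mostly compare group means.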

How the data were processed

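RNA-seq of 18 BMDM samples was analysed, grouped by their labels. The authors aligned reads to mm10 with STAR and quantified genes with Partek's E/M tool, and deposited estimated counts, not normalized, of which 41.1% were not whole. They were rounded before any test. Genes were kept by filterByExpr and fitted in edgeR 4.0.16 (R 4.3.3) with TMM factors, a mean for each of the 6 groups and the quasi-likelihood test, and p values were adjusted by Benjamini-Hochberg over all tested genes in each of 11 comparisons. A call needed both an adjusted p below 0.05 and a change beyond 1.3 in size on the log2 scale. The standard error is the log2 change divided by the square root of F. Fits were tested on simulated data. DESeq2 1.42.0, limma 3.58.1, pandas 2.3.3 and matplotlib 3.10.9 were also used. The text names the 10 genes, at most 4 called genes per list and comparison, and the 3 most alike genes, a few of which are not reported here. Members and lists were chosen with earlier results of these data known. Lengths are from GENCODE M21. The end of each gene is the deposited stop less 1, since 95.1% of shared genes had a stop 1 past the annotated end.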

Additional observations from a re-analysis of the deposited data

Results flagged for a closer look

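For 6 members the AC response differed between the strains by the test of the difference itself. The log2 differences, SjSS minus B6, were 2.5 for Bcl2a1d, 2.16 for Bcl2a1a, 1.18 for Bcl2a1b, 0.86 for Birc3, 0.56 for Mcl1 and -0.67 for Bcl2l11, each with an adjusted p of at most 1.05e-04 in edgeR. For CpG only Bbc3 passed with all libraries (log2 -0.78, adjusted p = 0.04, with 5.85% of all genes passing), and it did not pass without SjSS control replicate 3 (log2 -0.53, adjusted p = 0.0865). Pmaip1 passed without 1 of 2 libraries for each treatment (SjSS control replicate 1, or replicate 3 of treated B6). Groups of 3 samples were not tested for single samples far from the others.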

How the results depend on the processing

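Leaving out 1 library at a time, members called numbered 2 to 3 for ACs in B6, 4 for ACs in SjSS, 4 and 3 to 5 for CpG in B6 and SjSS, 2 between the strains with ACs, 2 for the interaction of strain and AC, 2 and 1 for AC against CpG in B6 and SjSS, and 0 for the remaining comparisons. With no fold threshold they were, in the same order, 8, 9, 9, 7, 9, 6, 8 and 6 (beside 38.3%, 58%, 57.9%, 54.2%, 49.4%, 37.9%, 46.1% and 52.2% of all genes). They were 6 between the strains in control (19.6% of all genes), 6 with CpG (19.7%) and 1 for the interaction of strain and CpG (5.85%). With the A1 genes summed they were 0 for ACs in B6, 2 for ACs in SjSS, 0 between the strains with ACs, 1 for the interaction of strain and AC and 0 for AC against CpG in B6, in part because 3 genes became 1. A fold threshold of 1 gave 4 for AC against CpG in B6. Library totals with no TMM factor, chosen after seeing the data, gave 1 between the strains with ACs. Members highest in AC treated SjSS were 5 as CPM per kb and 1 as TPM. Members that changed sign had an adjusted p over 0.1 in the alternative. These were, with library totals, Pmaip1 for ACs in B6 (-0.06), Bbc3 for ACs in SjSS (-0.2), Mcl1 between strains with ACs (-0.02) and CpG (0.02), Bcl2 and Bcl2l1 for the interaction with AC (-0.02 each) and Bcl2l11 for AC against CpG in SjSS (-0.15). With DESeq2's test or size factors they were Bbc3 between strains with CpG (-0.01) and Birc3 for the interaction with CpG (-0.02). Leaving out 1 library at a time, values ranged from -0.14 to 0.13 for Pmaip1 (ACs in B6), -0.11 to 0.02 for Bcl2 (CpG in B6), -0.07 to 0.12 for Bbc3 (strains with CpG), -0.06 to 0.09 for Birc3 and -0.27 to 0.01 for Bcl2a1d (interaction with CpG) and up to 0.01 for Bcl2l1 (AC against CpG in SjSS). The cause was not tested. With the replicate number as a block, members called were 2, 4, 4 and 4 for the responses to ACs and CpG, and no call changed, nor with the block nested in strain. By the adjusted p alone the nested block added 3 results, all of Pmaip1 (CpG in SjSS 0.0332, interaction with AC 0.0216, interaction with CpG 0.0238), and the shared block changed none. Same-numbered samples of a strain had residual correlations of 0.02 to 0.264 (9 of 18 pairs over 0.1, with all 3 pairs of control and CpG treated B6 among them at 0.137 to 0.264), so the numbers were not taken to pair samples throughout, though 17 of 18 samples correlated best with their own number. With the longest transcript as length, chosen after seeing the data, the ratio of anti-apoptotic to BH3-only members was 12.6, 20, 61, 8.42, 31.2 and 39.3 in the 6 groups, in the order Con, AC and CpG of B6 and then SjSS. The filter of 10 counts in 3 samples and fits of the compared groups alone changed no member's call, but by the adjusted p alone the latter lost 6 results and added 3. Lost were Bcl2l1 for ACs in SjSS (0.0775), Bcl2 (0.0738), Bcl2l1 (0.0594) and Birc3 (0.0517) between strains in control, Bcl2l11 between strains with CpG (0.0635) and Bbc3 for the interaction with CpG (0.0929). Added were Bcl2l11 between strains in control (0.0336), Bcl2l1 between strains with ACs (0.00965) and Birc3 for AC against CpG in SjSS (0.0155). Library totals lost 8 and added 10.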

Other observations

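Since the SjSS strain carries chromosome intervals of another strain, genes near each member were counted for strain differences among control samples, a count chosen after seeing the data. Of 135 tested genes within 5 Mb of the start of Mcl1, 13 (9.63%) were called, against 2.01% of all tested genes. Near Bcl2 it was 1 of 15, and near each other member at most 2. Mcl1 itself was not called (log2 -0.29). The bounds of the intervals were not used here.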
